A study of Drosophila melanogaster with 6 samples.

Results

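The glycolytic enzymes and lactate dehydrogenase of Drosophila were followed as a set of 10 genes: Hex-A, Pgi, Pfk, Ald1, Tpi, Gapdh1, Gapdh2, Pgk, Eno and Ldh. A gene was measured where a probe set (a group of oligonucleotides on the array that report 1 transcript) was annotated to that gene and to no other. By this rule 7 of the 10 genes had a value, each from 1 probe set, out of 13966 probe sets tested on the array. Tpi was listed for 1 probe set shared with the gene CG1607, so its signal could not be assigned, and no single-gene probe set was listed for Gapdh2 or Ldh. The lactate branch was therefore not analysed here.

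RNA was profiled on 1-colour oligonucleotide arrays in 2 kinds of cells, with 3 arrays each. The GSC arrays held total RNA of germline stem cells purified from ovaries mutant for bam, a gene needed for stem cell daughters to differentiate, so such ovaries are filled with stem-like germ cells. The Kc arrays held total RNA of Kc, an established Drosophila line of embryonic origin that grows in culture. Neither the bam allele, the age of the flies nor the growth state of the cultures is given in the labels. No ovary with intact bam was among the arrays, so each difference is between a germ cell population and a cultured line and cannot be split into cell type, bam mutation or culture. Ovaries with excess Dpp, which the study's design also lists, were not analysed here.

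Glycolysis converts glucose to pyruvate in the cytoplasm. Its first steps phosphorylate and rearrange glucose and spend ATP, aldolase then splits the sugar into a pair of triose phosphates, and the later steps from glyceraldehyde 3-phosphate onward yield ATP and NADH. In cells that turn much of their pyruvate into lactate, lactate dehydrogenase returns NADH to NAD+, and in Drosophila embryos and larvae the nuclear receptor ERR is known to activate many of these enzyme genes together.

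Marker genes were set against the labelled identity of both groups. Of 9 measured germ cell genes 8 were higher in GSC by at least 2-fold with an adjusted p below 0.05, against 12.5% of all genes. The other, tud, was higher but under that fold (log2 fold 0.97). The 9 genes summed to 37650 to 41780 on GSC arrays and 885.5 to 1095 on Kc arrays. Of 9 measured genes typical of Kc and of hemocytes 8 were lower in GSC by the same rule, against 8.02% of all genes. NimC1 was the exception (-0.38). These 9 summed to 754.9 to 769.9 on GSC arrays and 55290 to 56410 on Kc arrays. Array medians lay between 148.5 and 176.5 in the authors' linear signal units, and log2 signals correlated across probe sets at 0.96 or more within each group and at no more than 0.86 between groups.

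The glycolytic genes did not move together. Relative to Kc, Pgi rose, Hex-A and Ald1 fell, and Pfk, Gapdh1, Pgk and Eno were not called. A probe set was called where the groups differed at least 2-fold with an adjusted p below 0.05, from limma on log2(signal + 38) with Benjamini-Hochberg adjustment over all probe sets. The pseudocount of 38 is the 25th percentile of all signals, and it understates the fold of dim probe sets. Of the 7 measured members 3 were called (42.9%), against 19.8% of all probe sets and 20.5% of all genes. In the array as a whole 11.7% of probe sets rose and 8.11% fell, beside 1 and 2 of the 7 members. These were 1633 and 1132 probe sets, so 59.1% of the called probe sets were higher in GSC. Scaled to the hybridisation controls, 2810 were higher and 685 lower in GSC (80.4% higher), and over all probe sets the log2 fold then had a median of 0.32. With no fold minimum 4 of the 7 had an adjusted p below 0.05, against 34.5% of all probe sets. With so few members these shares are given as a description. The median log2 fold was -0.22 over the 7 members and 0.025 over all probe sets. With the hybridisation controls the members' median was 0.22, below that of all probe sets, and the same 3 members were called.

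**Figure D1:**
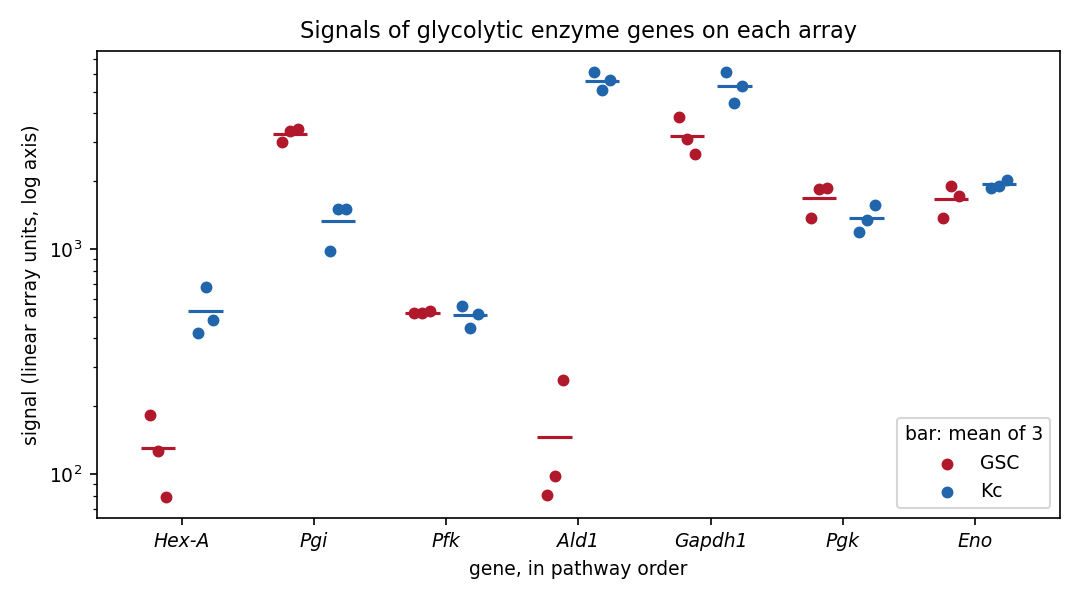
Signal of each measured member on each array (linear array units on a log axis), in pathway order from left to right, with GSC arrays in red, Kc arrays in blue and a bar at the mean of 3. The groups lie apart for Hex-A, Pgi, Ald1 and Gapdh1, and they overlap for Pfk, Pgk and Eno.

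Hex-A encodes the hexokinase that phosphorylates glucose at the entry of the pathway. Its probe set (144761_at) gave 183.5, 126.3 and 79.2 signal units in GSC, against 423, 676.8 and 484 in Kc. Every GSC value lay below every Kc value, and GSC 1 was more than double GSC 3. The GSC mean was 129.7 ± 52.2 and the Kc mean 527.9 ± 132.5 (SD over 3 arrays, as in the means that follow). The log2 fold was -1.78 ± 0.274 (SE, limma adjusted p = 0.000653). Of the 13966 probe sets, 462 had a lower log2 fold than Hex-A.

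Pgi encodes glucose-6-phosphate isomerase, which converts glucose 6-phosphate to fructose 6-phosphate. Its probe set (152515_at) had 2984.6, 3335.8 and 3418.5 in GSC and 983.2, 1508.4 and 1511.2 in Kc. It was the only measured member that rose, and all GSC arrays were above all Kc arrays. The mean was 3246 ± 230.4 in GSC and 1334 ± 304 in Kc, a log2 fold of 1.28 ± 0.166 (SE, limma adjusted p = 0.000213). The low array of Kc was Kc 1, and without it the log2 fold was 1.08, the smallest of all alternatives tried and still called.

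Pfk encodes phosphofructokinase, the main controlled and committing step of glycolysis. Its probe set (152424_at) had 518.9, 517.8 and 526.8 in GSC and 558.3, 446.8 and 515.8 in Kc. The GSC values lay inside the Kc range. The log2 fold was 0.04 (limma adjusted p = 0.869), and its 95% interval ran from a GSC to Kc ratio of 0.824 to one of 1.29. A doubling or halving lay outside that interval, but differences within those bounds did not, and the interval assumes the authors' scaling. With arrays scaled to the hybridisation controls the log2 fold was 0.47 (adjusted p = 0.29), and with quantile normalization it was -0.15.

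Ald1 encodes the main aldolase, which cleaves fructose 1,6-bisphosphate. It showed by far the widest gap of the measured members. Its probe set (154814_at) had 80.4, 97.8 and 260.6 in GSC and 6095.9, 5084.9 and 5630.4 in Kc. The Kc arrays differed little from each other, whereas GSC 3 was well above the other GSC arrays. The mean was 146.3 ± 99.4 in GSC and 5604 ± 506 in Kc, and the log2 fold was -5.06 ± 0.298 (SE, limma adjusted p = 1.34e-06), a 33.4-fold decrease on the scale with the pseudocount. Of the 13966 probe sets, 26 had a lower log2 fold. Without GSC 3 the log2 fold was -5.47, and it was -4.27 with the pseudocount at the median of all signals.

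Gapdh1 encodes a glyceraldehyde-3-phosphate dehydrogenase, the step that produces NADH. Its probe set (154244_at) had 3839.4, 3078.6 and 2645.2 in GSC and 6116, 4469 and 5310.8 in Kc. The groups did not overlap, as was so for 45.4% of all probe sets. The mean was 3188 ± 604.5 in GSC and 5299 ± 823.6 in Kc. The log2 fold of -0.73 ± 0.157 (SE) had a limma adjusted p of 0.0048 but stayed below the fold minimum, so Gapdh1 was not called. Under scaling to the hybridisation controls the log2 fold was -0.28 (adjusted p = 0.512), and with a floor in place of the pseudocount the adjusted p was 0.0509.

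Pgk encodes phosphoglycerate kinase, the first step that returns ATP. Its probe set (143301_at) had 1366.2, 1839.9 and 1865.6 in GSC and 1194.7, 1347.8 and 1572.4 in Kc. GSC 1 lay among the Kc values and the other GSC arrays above them. The log2 fold was 0.29 ± 0.155 (SE, limma adjusted p = 0.197), with a 95% interval of 0.96 to 1.56 for the ratio of GSC to Kc. Scaled to the hybridisation controls it was 0.73 (adjusted p = 0.0439), below the fold minimum.

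Eno encodes enolase, which forms phosphoenolpyruvate. Its probe set (143150_at) had 1375.8, 1908.2 and 1716.6 in GSC and 1869.2, 1898.9 and 2033.7 in Kc. The groups overlapped because GSC 2 exceeded Kc 1 and Kc 2. The log2 fold was -0.22 ± 0.133 (SE, limma adjusted p = 0.253), with a 95% interval of 0.697 to 1.06 for the ratio, and it was 0.22 under scaling to the hybridisation controls.

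**Figure D2:**
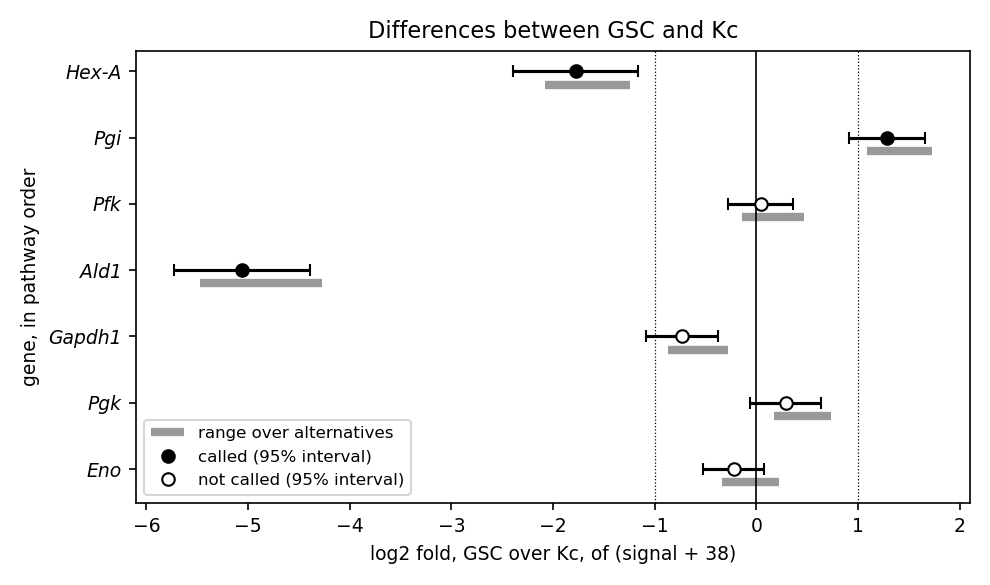
Log2 fold of GSC over Kc for each measured member (x axis) in pathway order from the top, with its 95% interval, filled where called; grey bars span the values over the alternatives and dotted lines mark a fold of 2 in each direction. Hex-A (-1.78), Pgi (1.28) and Ald1 (-5.06) keep to 1 side of the dotted lines in their grey bars, and those of Pfk and Eno cross 0.

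The called members thus stood among the early steps of the pathway, from hexokinase to aldolase, and the 3 measured members after aldolase had log2 folds between -0.73 and 0.29. This split depends on the member list. Pglym78, a mutase gene acting between Pgk and Eno but no member, was called lower in GSC (log2 fold -2.06). Tpi and the pyruvate kinase gene PyK, also after aldolase, had no value. Among the early steps, neighbouring enzymes differed in direction: Hex-A was lower in GSC, Pgi higher, Pfk near 0 and Ald1 lower. The replicate spread differed as well. The SD of log2 values within GSC was 0.013 for Pfk, 0.103 for Pgi, 0.459 for Hex-A and 0.72 for Ald1. The median over all probe sets was 0.203, and 5 of the 7 members lay above it. That median was not matched for signal, and Hex-A and Ald1 were the dimmest measured members in GSC (means 129.7 and 146.3). Within Kc 2 of the 7 members, Hex-A (0.326) and Pgi (0.346), were above the median of 0.242.

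The array also carries control probe sets for GAPDH at the 5′ end, the middle and the 3′ end of the transcript. The annotation used here does not pair them with Gapdh1 or Gapdh2, so they are no members, and they were left out of the main fit. The 5′ probe set had 1309, 1527.1 and 1385.8 in GSC and 2743.6, 2842.6 and 2568.7 in Kc. The 3′ probe set had 6491.9, 7076 and 8439.8 in GSC and 9501, 9843.8 and 10076.1 in Kc. All GSC values were below all Kc values at both ends, and at the middle too. In the fit that kept the controls the log2 fold was -0.93 ± 0.107 at the 5′ end (SE, limma adjusted p = 9.18e-05), -0.38 in the middle (adjusted p = 0.0106) and -0.43 at the 3′ end (adjusted p = 0.0142). The size of the GAPDH difference thus varied along 1 transcript. The value of the Gapdh1 probe set (-0.73 ± 0.157, SE) was between those of the 5′ and 3′ ends. This does not place that probe set on the control transcript.

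**Figure D3:**
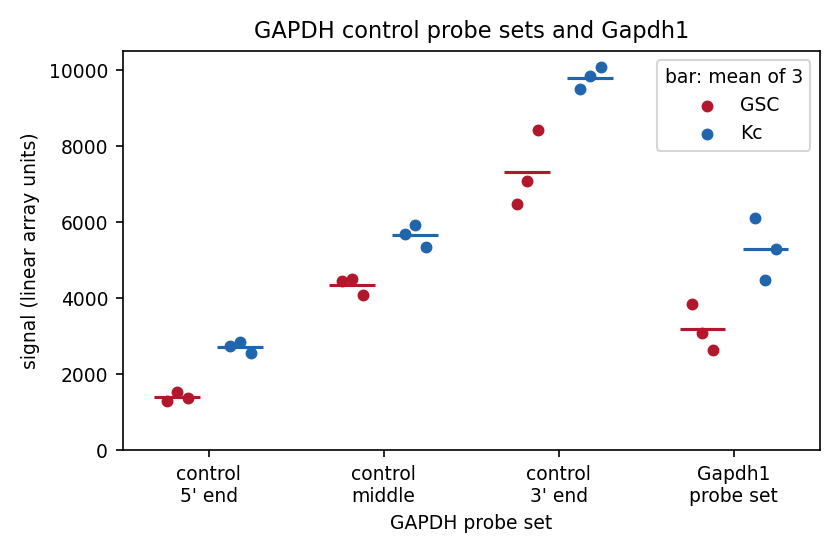
Signal (linear array units) of the GAPDH control probe sets from the 5′ to the 3′ end and of the Gapdh1 probe set, on GSC arrays (red) and Kc arrays (blue), with a bar at the mean of 3. At the 5′ end GSC averages 1407 and Kc 2718, and at the 3′ end GSC averages 7336 and Kc 9807.

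The 3′ to 5′ ratio of these controls, a measure of how far labelled RNA reaches upstream, was 4.96, 4.63 and 6.09 in GSC, against 3.46, 3.46 and 3.92 in Kc. A two-sided exact permutation test gave p = 0.1, and no lower value is possible with 3 arrays in each group. Actin and eIF-4a controls ran the same way with wider gaps. The actin ratio averaged 4.58 in GSC and 1.85 in Kc, and the eIF-4a ratio 6.05 and 3.61. Hybridisation controls, which are added to every sample, had geometric means of 2113 (GSC 1), 2884 (GSC 2) and 3753 (GSC 3), against 4302, 3746 and 3636 for Kc 1, Kc 2 and Kc 3. These differences between arrays accompany every member probe set, called or not. The hybridisation controls overlapped between groups, as GSC 3 exceeded Kc 2 and Kc 3. Where the member probe sets lie along their transcripts is not given in the sources used here, and the part of RNA quality in their values was not tested. The calls for Hex-A (log2 fold -1.37), Pgi (1.73) and Ald1 (-4.68) were kept under scaling to the hybridisation controls. That scaling applies the same factor to all probe sets of an array, so it does not address differences along a transcript.

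Markers of other cells were set beside these values, since fewer cells of a type and less RNA per cell cannot be told apart in bulk RNA. Over all genes 12.5% rose and 8.02% fell. Of 12 measured muscle genes 1 was called, the actin gene Act87E, which fell by 1.58 on the log2 scale and whose probe set may not tell actin genes apart. The sum of the other 11 was 492.8 to 621.2 on GSC arrays and 652 to 998.2 on Kc arrays, and Tm2, Mlp60A, Prm and Act88F were under 38 on all 6 arrays. Of 6 fat body genes 1 rose and 1 fell, with sums of 950.7 to 1112 in GSC and 1613 to 1816 in Kc, and Fbp2 was under 38 on all 6. Of 16 genes of ovarian somatic cells 5 rose and 0 fell. All 5 are yolk or vitelline membrane protein genes, and the list summed to 4741 to 5178 in GSC and 1725 to 2315 in Kc, with ptc and upd1 under 38 on all 6 arrays. The part of such cells in the values of Hex-A, Pgi and Ald1 was not tested.

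Other genes of the same enzymatic steps were mostly dim or similar in both groups. Of 13 measured, 1 rose and 1 fell, against 12.5% and 8.02% of all 10845 measured genes, and the median log2 fold was -0.09. Where a gene had several probe sets, the one whose log2 signals averaged highest over the 6 arrays stood for it. Pglym78, a phosphoglycerate mutase acting between Pgk and Eno, had 410.2, 430.2 and 587.4 in GSC and 2294.3, 1979.1 and 1972.4 in Kc. The GSC arrays were all far below the Kc arrays, and the log2 fold was -2.06 (limma adjusted p = 6.41e-06), so the mutase step differed where the steps on either side were not called. CG9961, a gene related to Pgk, rose by 1.59 on the log2 scale with low signals of 116.9 to 153.8 in GSC, against 5.1 to 44.2 in Kc, and the call was lost with the pseudocount at the median (0.69). Pfrx, which makes the fructose 2,6-bisphosphate that stimulates phosphofructokinase, had 1453.5, 1464.7 and 1365.9 in GSC and 2295.6, 1530.7 and 1533.2 in Kc (log2 fold -0.29, limma adjusted p = 0.212). The second hexokinase gene Hex-C had 4.1 to 7.5 in GSC and 12.3 to 64.1 in Kc and was not called. PyK, the pyruvate kinase gene of the last step, had no single-gene probe set here.

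Paralogs and opposing enzymes were compared as within-array log2 ratios over the 3 planned pairs that could be computed. The ratio of fbp, the gluconeogenic fructose-1,6-bisphosphatase gene that opposes Pfk, to Pfk averaged -0.85 in GSC and -0.66 in Kc, which did not differ beyond the spread between arrays (exact permutation test, two-sided p = 0.5, adjusted over the 3 pairs p = 0.5). The ratio of Pglym87 to Pglym78 averaged -2.37 in GSC and -5.10 in Kc, without overlap (exact p = 0.1, adjusted p = 0.3), and that of Hex-C to Hex-A -1.90 in GSC and -3.07 in Kc (exact p = 0.2, adjusted p = 0.3). Pglym87 was under 38 on every Kc array and Hex-C on every GSC array, so the ratios of both pairs depend on the pseudocount (1.18 for the Hex-C difference as reported, 0.08 with a pseudocount of 1).

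Genes that handle pyruvate or run the pathway backwards differed in single enzymes. Of 11 measured, 1 rose and 2 fell, against 12.5% and 8.02% of all genes. The median log2 fold of the list was -0.19. Men, a malic enzyme gene whose product makes pyruvate and NADPH from malate, had 179.1, 112.2 and 211.1 in GSC and 2442.3, 2368 and 2255.4 in Kc. This was the largest difference of the list, at -3.57 (limma adjusted p = 7.05e-07), and a dimmer Men probe set was called the same way (-1.91). A brighter malic enzyme gene, Men-b, looked up after the values were seen, averaged 3919 in GSC and 4332 in Kc. It was not called (-0.14). Its dimmer probe set was lower in GSC (-0.76, limma adjusted p = 0.000752) but stayed below the fold minimum, so the 2 probe sets differed. muc, a subunit gene of the pyruvate dehydrogenase complex, had 1070.3, 1147.3 and 1009.2 in GSC and 6106.1, 4344.4 and 3965.9 in Kc (log2 fold -2.10, limma adjusted p = 6.48e-06). Pdp, the phosphatase gene that activates that complex, rose by 1.09, close to the fold minimum, and stayed under it in 4 alternatives. The mitochondrial pyruvate carrier gene Mpc1 (0.22) and fbp (-0.14) were not called.

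Genes of the shuttles that carry the reducing equivalents of glycolysis into mitochondria were measured too. Of 8 such genes 1 rose and 1 fell, against 12.5% and 8.02% of all genes. The median of the list was -0.07. Mdh1, the cytoplasmic malate dehydrogenase gene, had 5914.5, 6463.1 and 6537.8 in GSC and 2867.4, 2932.6 and 2675.1 in Kc (log2 fold 1.15, limma adjusted p = 9.81e-06). Got2, a glutamate oxaloacetate transaminase gene, had 712.7, 728.8 and 780.8 in GSC and 4532.2, 4188.6 and 4097.1 in Kc (-2.47, limma adjusted p = 1.54e-07). Mdh1 and Got2 were the only genes called in this list. Gpdh1, the glycerol-3-phosphate dehydrogenase gene that regenerates NAD+ beside lactate dehydrogenase, had 622.5 to 707 in GSC and 439.9 to 810.1 in Kc and was not called (0.08).

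Of 6 measured pentose phosphate genes 0 were called by limma, against 20.5% of all genes. With no fold minimum 2 of the 6 had an adjusted p below 0.05, against 34.5% of all probe sets. CG8036, a transketolase gene (-0.82), and Rpe (-0.70) had an adjusted p under 0.05 (0.00152 and 0.00221) below the fold minimum. Zw, the glucose-6-phosphate dehydrogenase gene, had no single-gene probe set here. Of 17 genes of sugar uptake, trehalose and glycogen 1 fell and 0 rose, against 8.02% and 12.5% of all genes. The median of this list was 0.19. Scaled to the hybridisation controls the median was 0.56, and 3 further genes named after their values were seen, AGBE (1.32), Tps1 (1.09) and sut1 (1.02), were called higher in GSC. The one that fell was UGP, which makes UDP-glucose for glycogen and trehalose synthesis, with 518.4, 608.3 and 412.6 in GSC and 2578.9, 3181 and 2590.6 in Kc (-2.36). The trehalase gene Treh had 271.6 to 401.7 in GSC and 576.9 to 639.5 in Kc, without overlap, and stayed below the fold minimum (-0.80, limma adjusted p = 0.00434).

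Of 16 measured genes of the tricarboxylic acid cycle 5 fell and 0 rose, against 8.02% and 12.5% of all genes. The cycle oxidises the acetyl groups made from pyruvate, and its measured genes had a median log2 fold of -0.20. Scaled to the hybridisation controls 2 were lower and 1 higher in GSC, with a median of 0.15, and the higher one was Ogdh (1.01), named after its values were seen. The mitochondrial aconitase gene mAcon1 had 1486.7, 1425.7 and 1396.9 in GSC and 11075.2, 10549.7 and 10282.3 in Kc (-2.86, limma adjusted p = 3.16e-08). The isocitrate dehydrogenase subunit gene Idh3g had 415.4, 420.1 and 453.7 in GSC and 1890.3, 1361.8 and 1500.7 in Kc (-1.78). Its partner subunit genes Idh3a (-0.02) and Idh3b (0.20), looked up after the values were seen, were not called, so subunits of 1 enzyme differed. The succinyl-CoA ligase subunit gene ScsbetaG fell by 1.28 on the log2 scale, and a dimmer probe set of it was not called (-0.25). Its call, and those of Idh (-1.21) and CG5214 (-1.11), named after their values were seen, ended under scaling to the hybridisation controls (ScsbetaG -0.84, Idh -0.77, CG5214 -0.66). The call of CG5214 was also lost without GSC 1, GSC 3, Kc 2 or Kc 3, with a floor (adjusted p = 0.128) and with the variance prior without trend and robust estimation (adjusted p = 0.0521).

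**Figure D4:**
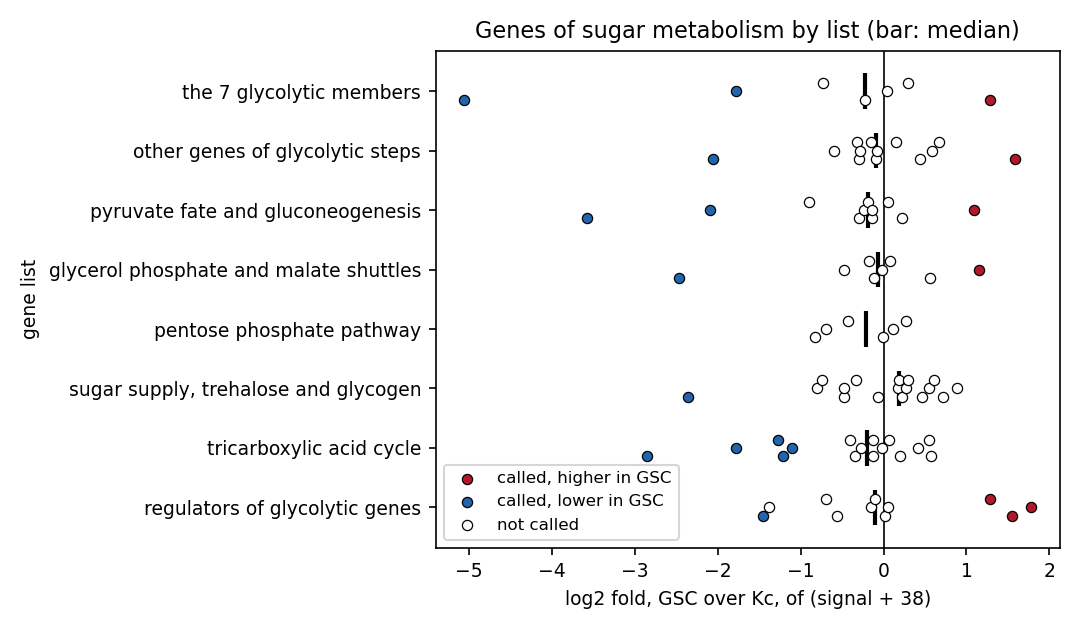
Log2 fold of GSC over Kc (x axis) for each measured gene of sugar metabolism, 1 row per list, with called genes filled red (higher in GSC) or blue (lower in GSC) and a bar at the list's median. Medians lie between -0.22 and 0.19 in every row, and Ald1 is the point farthest from 0.

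Genes listed as regulators of glycolytic genes were measured as well. They comprise transcription factors and the genes Hph and Vhl, whose products act on the sima protein. Of 11 measured, 3 rose and 1 fell, against 12.5% and 8.02% of all genes. The median of the list was -0.10. Hph counts as not called, but its other probe sets were called in opposite directions (1.81 and -1.08), so the count depends on which of them stands for Hph. ERR had 468.5, 375.4 and 455.4 in GSC and 146.2, 83.3 and 148.4 in Kc (log2 fold 1.54, limma adjusted p = 0.000561). The ERR transcript was thus higher in the group in which Hex-A and Ald1 were lower, Pgi was higher and the other measured members were not called. Whether ERR acts on these genes here was not tested. The sugar-responsive factor gene Mondo had 2541.1, 2785.1 and 2331.8 in GSC and 739.1, 782.1 and 625.6 in Kc (1.78). bigmax, the gene of its dimer partner, named after its values were seen, also rose (1.28). foxo, the insulin-repressed factor gene, fell by 1.45, a call lost with the pseudocount at the median (-0.87) and with a floor (adjusted p = 0.051). sima, the fly HIF-1 alpha gene, had 196.5 to 285.7 in GSC and 201.6 to 233.6 in Kc (0.05) and was not called.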

How the data were processed

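Linear probe set intensities were taken as the authors deposited them, 1 value for each array. MAS5 is the tool in the submitters' processing notes, with no version or settings. Every array had a mean of 500.1 once the lowest and highest 2% of values were trimmed, so no further scaling was applied. The table held 14010 probe sets with no detection call. The fit left out 44 array controls. Of the others, 12443 had 1 gene symbol in the platform annotation, 327 several and 1196 none, and no gene was named from one with several.

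The contrast GSC minus Kc was fitted by lmFit and eBayes (intensity trend, robust) from limma 3.58.1 in R 4.3.3 on log2(signal + 38), two-sided, adjusted by Benjamini-Hochberg over 13966 probe sets. The procedure was checked on simulated arrays. The labels do not say that arrays of a group came from separate dissections or cultures, so the p-values rest on a spread between samples that may be purely technical. The number of arrays limits the precision.

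Members and lists were chosen with earlier results of these data known. Named genes were all members, the 3 called genes of each list with the largest absolute log2 fold, and a fixed set of key enzymes. Alternatives covered the pseudocount, normalization, dim probe sets, variance prior, replicate block, control probe sets, fold minimum, probe set averaging and leaving out each array. Same-numbered GSC and Kc arrays did not deviate together (correlations -0.03, 0.036 and -0.007).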

Additional observations from a re-analysis of the deposited data

How the results depend on the processing

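Hex-A, Pgi and Ald1 kept their direction and their calls in all 17 alternatives run for each. Their log2 folds were -2.08 to -1.24, 1.08 to 1.73 and -5.47 to -4.27. The setting with no fold minimum is among the 17 and could not end or reverse a call. The replicate number as a block gave 3 called members and 2739 called probe sets, so it changed no member's call. Gapdh1 ranged from -0.87 to -0.28 and was called only with no fold minimum, which also raised the count over all probe sets to 4813 (2765 as reported). That count was 1690 with the pseudocount at the median and 2657 to 2757 without 1 array. Pfk (-0.15 to 0.47) and Eno (-0.34 to 0.22) changed sign among the alternatives and were never called, and Pgk stayed between 0.17 and 0.73. The GSC minus Kc difference in the GAPDH 3′ to 5′ ratio was 1.61 as reported and 2.82 with quantile normalization, and the cause was not tested. For the 17 called genes of the other lists, 272 of 288 values kept their call, 16 lost it in 6 genes and 0 reversed. The 288 also include the setting with no fold minimum. The planned ratios of Gapdh2 to Gapdh1 and of Ldh to PyK could not be computed, since Gapdh2, Ldh and PyK have no single-gene probe set here. With 1 probe set per member, no second probe set checks these values, and signals near 38 have no stated background level.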

Other observations

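Hph, the prolyl hydroxylase gene that marks the sima protein for degradation, was represented by 3 probe sets that disagreed, and it was named after its values were seen. The one with the highest mean log2 signal had a log2 fold of -0.15 and was not called, another averaged 948.9 in GSC and 244.7 in Kc (1.81, limma adjusted p = 3.17e-05), and the third averaged 147.9 in GSC and 341.9 in Kc (-1.08, limma adjusted p = 0.0268). Which transcripts each probe set reports was not analysed here.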
